A study of Mus musculus with 6 samples.

Results

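Endotoxin tolerance was examined in peritoneal macrophages of knockout mice by setting a second response to lipopolysaccharide (LPS) against a first one. The cells came from C57Bl/6 mice labelled miR-221/222 -/Y (KO), which lack the X-linked microRNA genes miR-221 and miR-222, and WT cells came from wildtype mice of the same background. KO tolerized cells were exposed to LPS at 10 ng/ml for 15 h, then kept 2 h without it after a wash, and finally given 1000 ng/ml for 4 h. KO LPS cells met 1000 ng/ml LPS for 4 h with no earlier dose, and KO naive cells met none. WT tolerized, WT LPS and WT naive cells were treated in the same ways. All cells were kept in DMEM with serum, and poly-A RNA was sequenced from 1 library per group. The series text speaks of triplicates, and whether they were pooled is not given in the sources used here. Each comparison below therefore sets 1 library against 1 library, with no replicate check, no test and no p-value, and the spread between animals or cultures could not be judged.

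Of 23699 rows in each deposited table, 9685 entered the comparison of KO tolerized with KO LPS cells. They were marked OK in both libraries, bore a symbol listed once and had at least 2 FPKM in either library, where FPKM is the number of sequenced fragments scaled to transcript length and library size. Of the rest, 309 rows were not marked OK, 529 belonged to repeated symbols and 13176 lay under 2 FPKM in both libraries. Ratios are given as log2((KO tolerized FPKM + 1)/(KO LPS FPKM + 1)), so positive values mean higher in KO tolerized cells and folds of low genes are understated. Bounds in brackets after a ratio combine the deposited intervals of both libraries and cover counting error only. At the edge of the level rule, Nt5e and En2 lay just inside with 2.00 FPKM in their higher library, and Pard6a and Nipal3 lay just outside.

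LPS, a molecule of the outer membrane of Gram-negative bacteria, is sensed by Toll-like receptor 4 with its co-receptors CD14 and MD-2. One arm of signalling, through MyD88, activates NF-kappaB and AP-1 and turns on cytokine genes, and another, through TRIF, induces interferon beta, which acts back through STAT2 and IRF9 on antiviral genes. Cells that have met LPS before answer a second dose with less of many inflammatory transcripts, a state called endotoxin tolerance, while other genes stay inducible. miR-221 and miR-222 are made from neighbouring genes and carry the same seed, the bases that pair with target mRNAs, and a reported target is Smarca4, the gene of Brg1, an ATPase that drives SWI/SNF complexes to move nucleosomes. The mature sequences missing from the KO cells are shown with the seed, bases 2 to 8, in capitals (RefSeq, GRCm38.p6).
mmu-miR-221-3p: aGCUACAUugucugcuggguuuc
mmu-miR-222-3p: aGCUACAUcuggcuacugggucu
Both share the 7 capital bases and differ in the 3′ part.

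The genotype could not be checked from these libraries, since Mir221 (mm9 X, 18723420 to 18723514) and Mir222 (X, 18724019 to 18724097) were listed at 0 FPKM in all 6 libraries and mature microRNAs, which lack a poly-A tail, are not captured. Smarca4 stood at 20.5 FPKM in KO tolerized, 18.4 FPKM in KO LPS and 18.2 FPKM in KO naive cells. The cells carried macrophage transcripts. Lysozyme Lyz2 had 8538 FPKM in KO tolerized and 16240 FPKM in KO LPS cells, and the F4/80 gene Emr1 had 841.7 and 283.1 FPKM in the same order. Gata6, the factor that defines large peritoneal macrophages, was at 0.576 FPKM in KO tolerized and 2.88 FPKM in KO LPS cells. Transcripts of other cells were present too. The 15 B cell markers summed to 757.0 FPKM in KO tolerized, 337.8 FPKM in KO LPS and 724.0 FPKM in KO naive cells. The 14 T and NK cell markers summed to 43.5 FPKM in KO tolerized, 16.8 FPKM in KO LPS and 37.9 FPKM in KO naive cells. The 12 mast cell and eosinophil markers summed to 202.9, 111.6 and 137.1 FPKM in KO tolerized, LPS and naive cells. The 12 neutrophil markers summed to 466.4 FPKM in KO tolerized, 234.2 FPKM in KO LPS and 329.2 FPKM in KO naive cells, mostly from S100a8 with 341.4 FPKM in KO tolerized and 143.5 FPKM in KO LPS cells. Of these markers, Elane, Ngp, Cxcr2 and S100a9 were listed at 0 in KO tolerized and KO LPS cells. The part of other cells in the results was not tested, and in bulk RNA fewer cells of a type and less RNA per cell cannot be told apart.

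Tolerized KO cells had far less of the interferon beta, TNF and antiviral transcripts than KO cells at their first LPS, and far more of the arginase, lipocalin and hypoxia-related transcripts. At least 2-fold higher in KO tolerized than in KO LPS cells were 2325 of 9685 genes (24%), and at least 2-fold lower were 421 (4.35%), while 6939 lay within 2-fold. With the deposited intervals also apart, 2314 (23.9%) were higher and 414 (4.27%) lower. Past 4-fold, 180 genes (1.86%) were higher and 102 (1.05%) lower. The split depends on scale. The median ratio of all genes was 0.56 on the log2 scale, and after each library was divided by its median of ratios, which brings that median to -0.02, 757 genes (7.81%) were higher and 1021 (10.5%) lower. The rescaling shifts nearly all genes down, low genes by less. The median of genes that reached 2 to 5 FPKM went from 0.75 to 0.34. That of genes at 200 FPKM or more went from -0.02 to -0.65. Because the split depends on scale, lists are described below against the all-gene median of 0.56. At the edge of the fold rule, Ccl9, a CC chemokine, lay just inside with 301.5 FPKM in KO tolerized and 604.1 FPKM in KO LPS cells, and so did Mllt3. Ccnt1, a cyclin of transcription elongation, lay just outside with 16.4 and 7.73 FPKM in the same order, and so did Scai.

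The calls differed with level. Genes that reached 2 to 5 FPKM had a median log2 ratio of 0.75, with 31.3% higher and 2.27% lower in KO tolerized cells. Those at 200 FPKM or more had a median of -0.02, with 11.1% higher and 18.5% lower. Higher genes had a median of 10.1 FPKM in KO tolerized and 3.14 FPKM in KO LPS cells, and lower genes had a median of 16.3 FPKM in KO tolerized and 46.8 FPKM in KO LPS cells. The depth was similar, with an implied 25.2 M fragments for KO tolerized and 22.1 M for KO LPS cells, estimated from the interval widths. The deposited intervals of the libraries did not overlap for 8219 genes (84.9%), so counting error is small beside most of the ratios given here. One transcript alone, the acute phase gene Saa3, took 14.4% of all FPKM in KO tolerized and 6.62% in KO LPS cells.

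**Figure D1:**
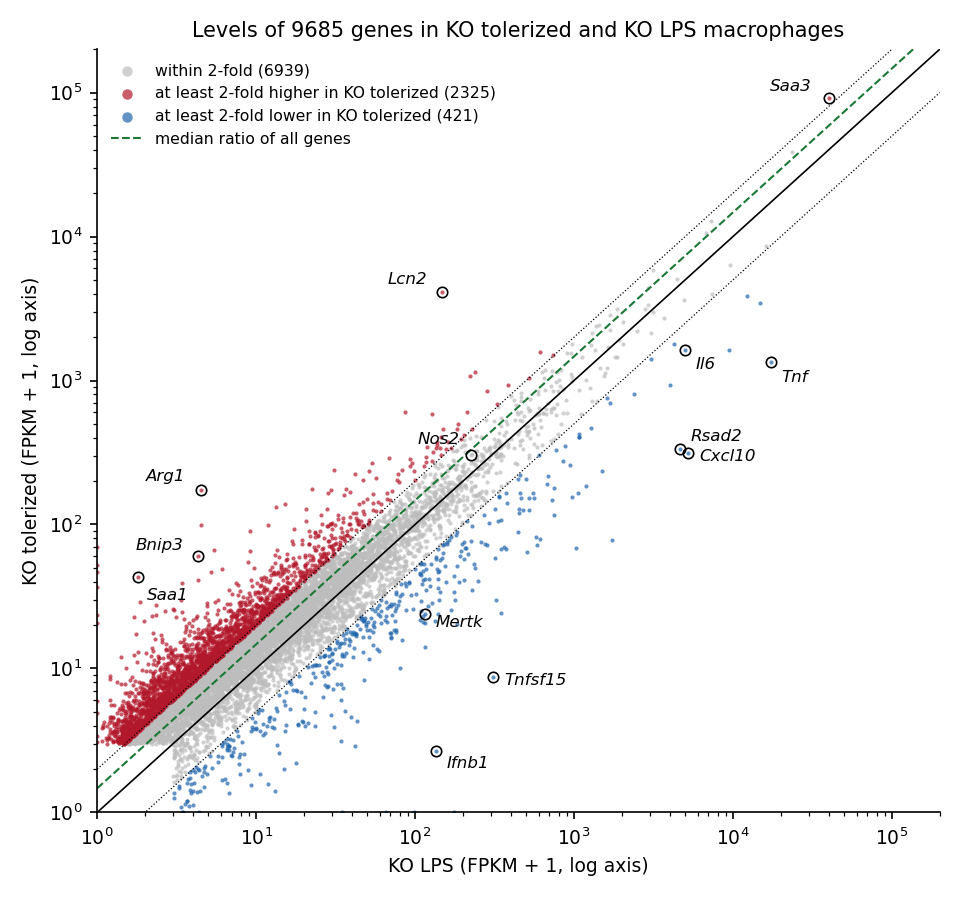
Level of each of the 9685 genes in KO tolerized (vertical) against KO LPS cells (horizontal), as FPKM + 1 on log axes, 1 library each. Red genes (2325) are at least 2-fold higher in KO tolerized cells and blue genes (421) at least 2-fold lower, the dotted lines mark 2-fold, and the dashed line marks the all-gene median ratio of 0.56 on the log2 scale.

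Among type I interferon and its signalling genes, Ifnb1 was far lower and the others went both ways. Ifnb1, the interferon beta gene (mm9 chromosome 4, 88167929 to 88168698), had 1.65 FPKM in KO tolerized, 134.0 FPKM in KO LPS and 0.103 FPKM in KO naive cells. Its log2 ratio was -5.67 (-6.17 to -5.26), the lowest of the genes with at least 10 FPKM in either library and intervals apart. Irf1, a transcription factor induced by interferon and NF-kappaB, had 63.6 FPKM in KO tolerized and 503.4 FPKM in KO LPS cells, a log2 ratio of -2.97. Usp18, which damps interferon receptor signalling, had 150.8 FPKM in KO tolerized and 560.8 FPKM in KO LPS cells (-1.89). Stat2 was lower as well, at 44.7 FPKM in KO tolerized and 106.4 FPKM in KO LPS cells (-1.23). Irf9, its partner in the interferon-stimulated complex, lay within 2-fold at -0.37. Irf7, which amplifies interferon production, went the other way, with 1151 FPKM in KO tolerized and 624.2 FPKM in KO LPS cells (0.88), also within 2-fold. Of 18 measured genes of interferon production and signalling, 6 were lower and 3 higher, beside 4.35% and 24% of all genes. Their median of -0.48 is 1.04 below that of all genes.

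Antiviral effectors were mostly lower. Cmpk2, a mitochondrial nucleotide kinase next to Rsad2, had 77.2 FPKM in KO tolerized and 1729 FPKM in KO LPS cells, a log2 ratio of -4.47 (-4.51 to -4.42). Rsad2, whose product viperin blocks virus replication, had 331.5 FPKM in KO tolerized, 4650.2 FPKM in KO LPS and 10.6 FPKM in KO naive cells (-3.81). Ifit2, which binds viral RNA, had 67.2 FPKM in KO tolerized and 1025 FPKM in KO LPS cells (-3.91), and Ifih1, the RNA sensor MDA5, had 78.7 and 613.5 FPKM in the same order (-2.95). All 4 stood above their KO naive levels, which were 4.29 FPKM for Cmpk2, 4.03 FPKM for Ifit2 and 11.5 FPKM for Ifih1. Of 36 antiviral effectors, 21 were at least 2-fold lower and 1, Bst2, was higher, beside 4.35% and 24% of all genes. Their median was -1.11. After rescaling 29 were lower and none higher, beside 10.5% and 7.81% of all genes. The Ifit and Oas genes have near copies, so their split is uncertain.

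The interferon-inducible GTPases, which attack the vacuoles of intracellular microbes, were lower without exception: 11 of 11 measured members, beside 4.35% of all genes. Their median was -1.99, 2.54 below that of all genes. Iigp1 had 28.8 FPKM in KO tolerized and 323.1 FPKM in KO LPS cells (-3.44). Gbp5 had 182.9 FPKM in KO tolerized and 1181 FPKM in KO LPS cells (-2.68), and Ifi47 had 116.3 and 747.6 FPKM in the same order (-2.67). Of the 14 listed GTPases, 3 did not enter the comparison. This list includes paralogs, whose counts can be shared.

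**Figure D2:**
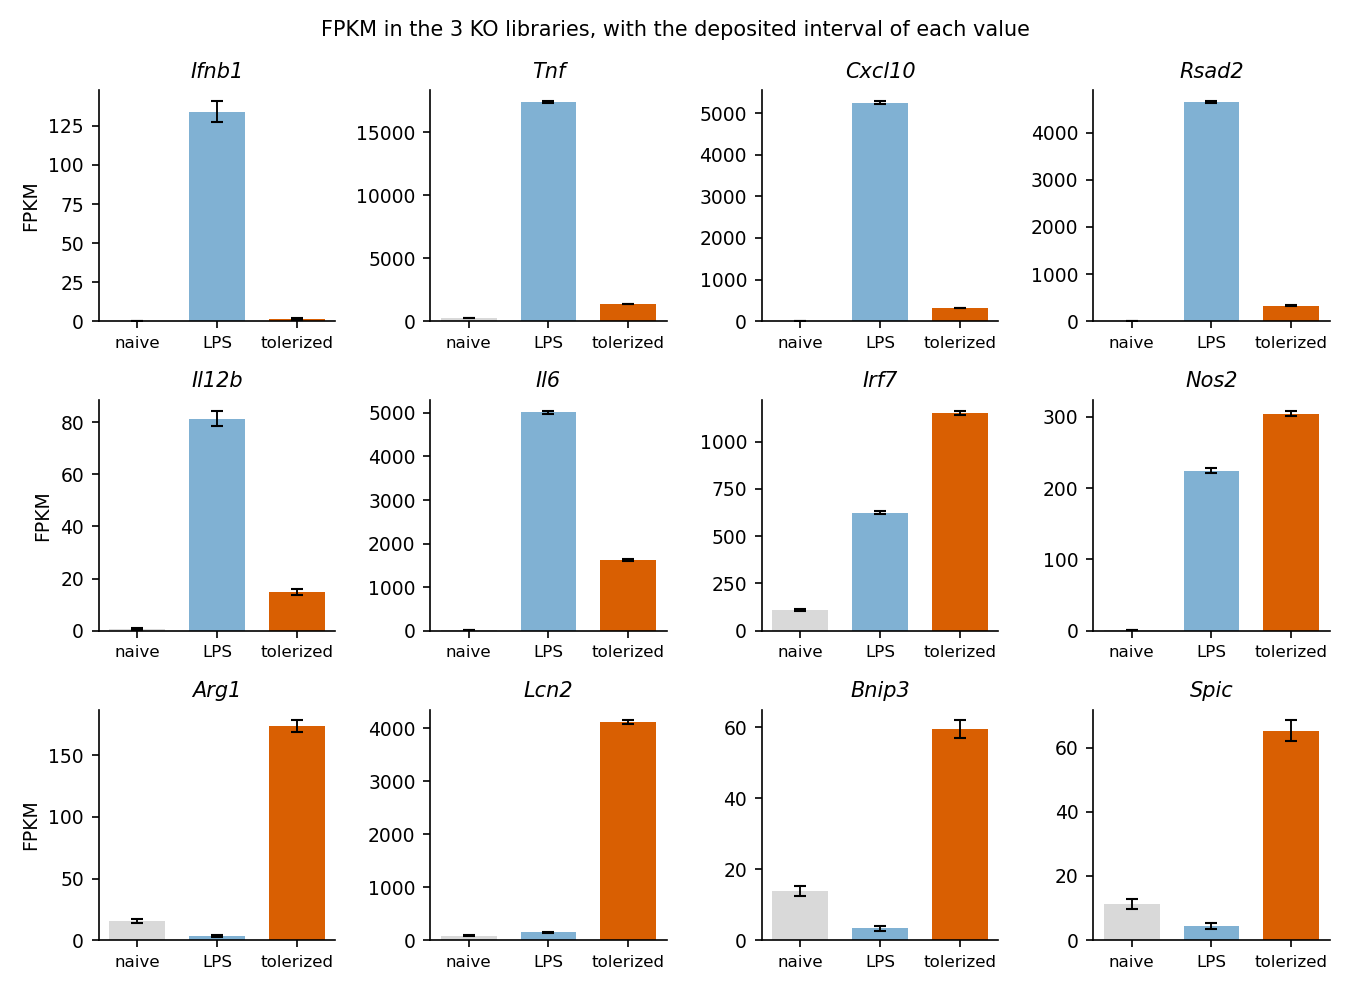
FPKM of 12 genes in the KO naive, KO LPS and KO tolerized libraries, on linear axes that start at 0. Bars are single libraries and error bars the deposited intervals, which cover counting error only. Ifnb1, Tnf, Cxcl10, Rsad2, Il12b and Il6 are highest in KO LPS cells, and Irf7, Nos2, Arg1, Lcn2, Bnip3 and Spic in KO tolerized cells.

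Inflammatory cytokines were more often lower than higher. Tnf (chromosome 17, 35336336 to 35338941), the third most abundant transcript of KO LPS cells, had 1352 FPKM in KO tolerized, 17407 FPKM in KO LPS and 219.9 FPKM in KO naive cells, a log2 ratio of -3.69 (-3.70 to -3.67). Tnfsf15, a TNF family cytokine that costimulates T cells, had 7.72 FPKM in KO tolerized and 310.0 FPKM in KO LPS cells (-5.16). Il15, a growth factor of NK and memory T cells, had 19.4 FPKM in KO tolerized and 181.6 FPKM in KO LPS cells (-3.16). The IL-27 subunit gene Il27 had 70.9 and 584.6 FPKM in the same order (-3.03), and the IL-12 subunit gene Il12b had 14.8 and 81.4 FPKM (-2.38). Il6, a pyrogenic cytokine, was less reduced, with 1624 FPKM in KO tolerized and 5013 FPKM in KO LPS cells (-1.63), and far above its KO naive level of 7.32 FPKM. Il10, the anti-inflammatory cytokine, had 54.7 FPKM in KO tolerized and 50.5 FPKM in KO LPS cells, and its intervals overlapped. Among all genes 4.35% were lower and 24% higher. Of 26 measured cytokines, 13 were at least 2-fold lower and 5 higher, with a median of -1.04. The 5 higher ones, looked up after the values were seen, were Il1f9, Ebi3, Il19, Il1f6 and Csf3, at ratios of 1.45 to 2.30. Il1f9 and Il1f6, which encode IL-36 cytokines, had 36.9 and 18.1 FPKM in KO tolerized cells, against 6.70 and 5.05 FPKM in KO LPS cells.

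Chemokines held both lower and higher calls. Cxcl10, which attracts activated T cells (chromosome 5, 92775665 to 92777915), had 312.0 FPKM in KO tolerized, 5246 FPKM in KO LPS and 5.79 FPKM in KO naive cells, a log2 ratio of -4.07 (-4.11 to -4.02). The neutrophil attractants Cxcl2 and Cxcl1 had 3887 and 1786 FPKM in KO tolerized cells, against 12287 and 4254 FPKM in KO LPS cells (-1.66 and -1.25). Cxcl5, of the same family, was higher at 123.3 FPKM in KO tolerized and 46.1 FPKM in KO LPS cells (1.40). The monocyte and T cell attractants Ccl4 and Ccl3 had 1638 and 3467 FPKM in KO tolerized cells, against 9415 and 14826 FPKM in KO LPS cells (-2.52 and -2.10). Ccl12, a ligand of CCR2, was higher, at 72.6 FPKM in KO tolerized and 20.6 FPKM in KO LPS cells (1.77). Beside 4.35% lower and 24% higher among all genes, 4 of 11 CC chemokines were lower and 2 higher. Of 11 CXC chemokines 4 were lower and 1 higher. The CC and CXC medians of 0.16 and -0.18 lay 0.39 and 0.73 below that of all genes. That of the CC chemokines turned to -0.47 after rescaling.

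The receptors, regulators and transcription factors of the LPS pathway differed in both directions, beside 28.4% of all genes past 2-fold either way. None of the 13 NF-kappaB subunits and inhibitors passed 2-fold in either direction, with a median of -0.25, though 6 were lower after rescaling. Nfkb1, the p105/p50 subunit, had 134.3 FPKM in KO tolerized and 258.7 FPKM in KO LPS cells (-0.94). Of 23 Toll-like receptors and adaptors, 5 were lower and 3 higher. Tlr2, the receptor for bacterial lipoproteins, had 124.9 FPKM in KO tolerized and 473.4 FPKM in KO LPS cells (-1.91), while the TRIF gene Ticam1 had 26.6 and 9.11 FPKM in the same order (1.45). Of 23 negative regulators of the pathway, 5 were lower and 3 higher. Inpp5d, the lipid phosphatase SHIP1, had 45.4 FPKM in KO tolerized, 4.23 FPKM in KO LPS and 56.2 FPKM in KO naive cells, a log2 ratio of 3.15 (3.002 to 3.31). Dusp1, a phosphatase of MAP kinases, had 91.7 FPKM in KO tolerized and 29.1 FPKM in KO LPS cells (1.63). The medians of these receptor and regulator lists were 0.16 and -0.14, and the receptor median turned to -0.46 after rescaling. Of 24 immediate early and AP-1 genes, 6 were lower, led by Mafk (-2.13) and Nr4a3 (-1.94), and 2 higher. Of 14 inflammasome genes, 3 were lower, 1, Nlrc4, was higher (1.55), and 10 lay within 2-fold. Among the lower ones, the sensor Nlrp3 had 164.4 FPKM in KO tolerized and 458.5 FPKM in KO LPS cells (-1.47). The cytokine Il18, also lower, had 40.8 and 139.2 FPKM in the same order (-1.75).

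**Figure D3:**
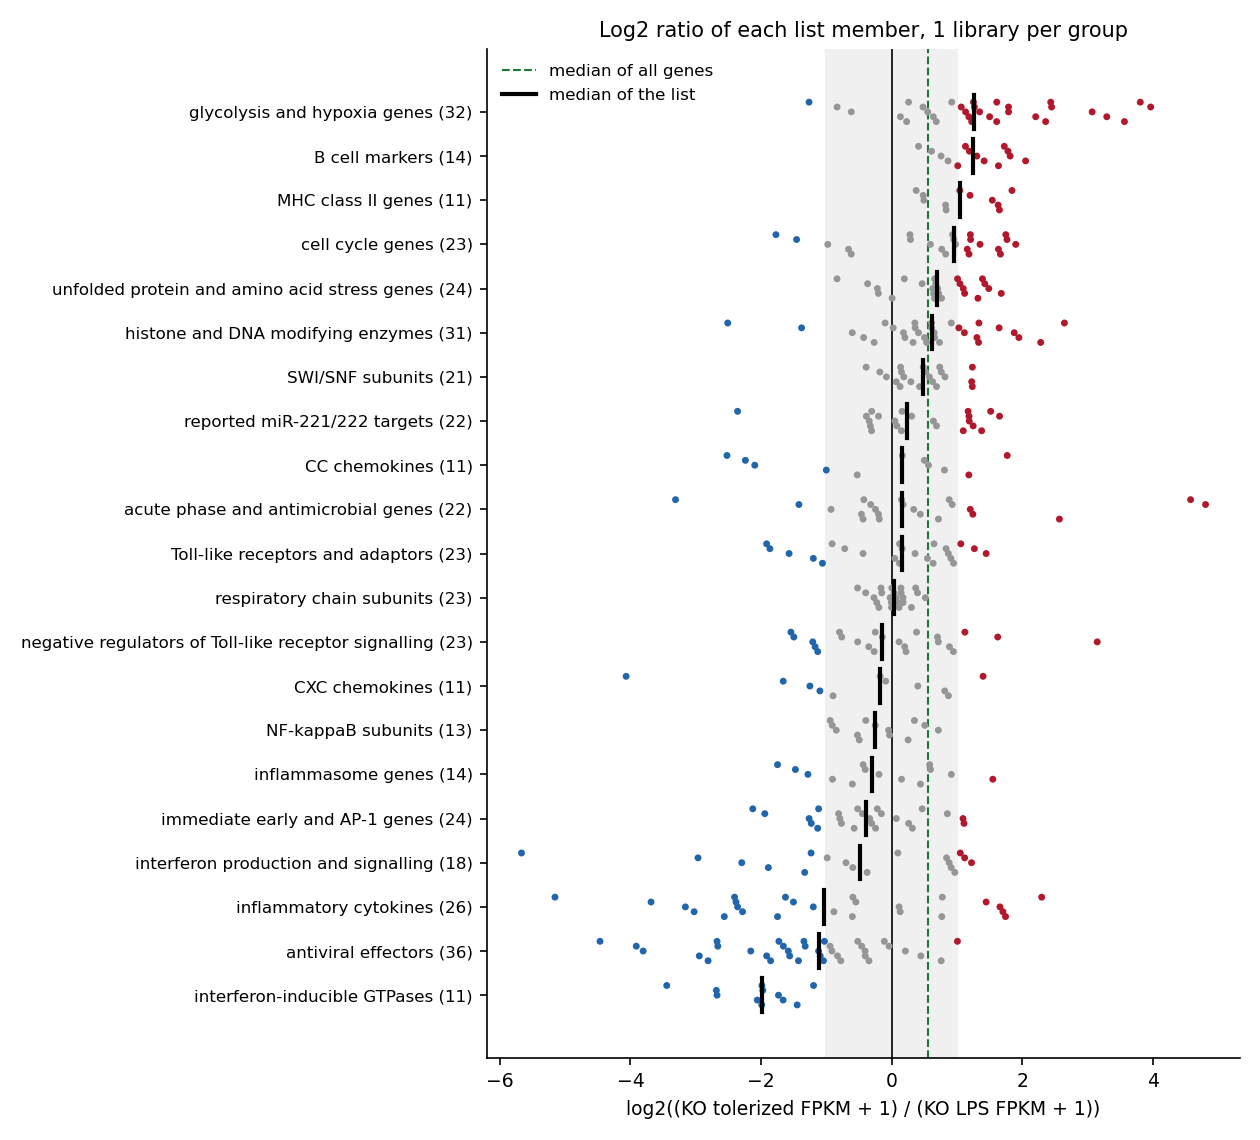
Log2 ratio of KO tolerized to KO LPS (FPKM + 1) for the measured members of 21 gene lists, with the number of members in brackets. Each point is 1 gene, red at least 2-fold higher, blue at least 2-fold lower, black bars are list medians, and the dashed line is the all-gene median of 0.56. Interferon-inducible GTPases lie at one end with a median of -1.99, and glycolysis and hypoxia genes at the other with 1.26.

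Arg1, Lcn2 and Saa1 had the highest ratios, while the lists they belong to lay below the all-gene median. Arg1, which splits arginine into ornithine and urea (chromosome 10, 24635013 to 24647276), had 173.7 FPKM in KO tolerized, 3.47 FPKM in KO LPS and 15.7 FPKM in KO naive cells. Its log2 ratio of 5.29 (5.04 to 5.58) was the highest of all genes with at least 10 FPKM in either library and intervals apart. Nos2, the inducible nitric oxide synthase that competes for arginine, had 304.4 FPKM in KO tolerized and 224.6 FPKM in KO LPS cells (0.44), which is below the all-gene median and turned to -0.19 after rescaling. Of 17 arginine and alternative activation genes, 4 were higher and 1 lower, with a median of 0.32, which is 0.23 below that of all genes and turned to -0.29 after rescaling. Lcn2, whose product lipocalin-2 withholds iron from bacteria (chromosome 2, 32240157 to 32243259), had 4112 FPKM in KO tolerized, 145.7 FPKM in KO LPS and 84.7 FPKM in KO naive cells, a log2 ratio of 4.81 (4.74 to 4.89). Saa1, an acute phase serum amyloid gene with the near copy Saa2, had 42.4 FPKM in KO tolerized and 0.813 FPKM in KO LPS cells (4.58). Its abundant relative Saa3, named for its level after values were seen, had 92289 FPKM in KO tolerized, 40025 FPKM in KO LPS and 53305 FPKM in KO naive cells. Of 22 acute phase and antimicrobial genes, 5 were higher and 2 lower, near the 24% higher among all genes, with a median of 0.16, which is 0.39 below that of all genes and turned to -0.47 after rescaling. The lower ones included Ptx3, a pattern recognition molecule, with 3.34 FPKM in KO tolerized and 42.0 FPKM in KO LPS cells (-3.31). Among the stefins, inhibitors of cysteine proteases with near-identical copies whose counts are uncertain, 3 of 4 measured genes were higher, led by 2010005H15Rik with 98.6 FPKM in KO tolerized and 3.49 FPKM in KO LPS cells (4.47).

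Glycolytic and hypoxia-inducible transcripts were higher as a group. Of 32 measured genes 21 were at least 2-fold higher and 1, Adm, lower, beside 24% higher among all genes, with a median of 1.26, which is 0.70 above that of all genes. After rescaling 12 were higher and 3 lower. Ankrd37, a target of the hypoxia-inducible factor, had 28.1 FPKM in KO tolerized, 0.859 FPKM in KO LPS and 6.12 FPKM in KO naive cells, a log2 ratio of 3.97 (3.51 to 4.52). Bnip3, which directs mitochondria to autophagy, had 59.5 FPKM in KO tolerized, 3.31 FPKM in KO LPS and 13.9 FPKM in KO naive cells (3.81). Egln3, an oxygen-sensing prolyl hydroxylase, had 26.7 FPKM in KO tolerized and 1.33 FPKM in KO LPS cells (3.57). Slc16a3, the lactate exporter MCT4, had 89.2 FPKM in KO tolerized and 8.18 FPKM in KO LPS cells (3.30). The 23 respiratory chain subunits stayed within 2-fold without exception, with a median of 0.04 (-0.59 after rescaling), from -0.52 for Ndufa4 to 0.52 for Sdhd.

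Promoters are shown for the 3 genes with the lowest ratios among all genes whose window holds the interferon motif, and for the 2 genes of the hypoxia list with the highest ratios whose window holds the hypoxia motif. The windows run from 250 bases before to 50 after the annotated start (RefSeq, GRCm38.p6, 300 bases, strand - for all 5). Capitals mark matches to the interferon-stimulated response element, GAAA and GAAA with any 2 bases between, in the first 3, and to ACGTG, the core of the hypoxia response element, in the last 2, on either strand.
Cxcl10 promoter, chr5:92348840-92349139: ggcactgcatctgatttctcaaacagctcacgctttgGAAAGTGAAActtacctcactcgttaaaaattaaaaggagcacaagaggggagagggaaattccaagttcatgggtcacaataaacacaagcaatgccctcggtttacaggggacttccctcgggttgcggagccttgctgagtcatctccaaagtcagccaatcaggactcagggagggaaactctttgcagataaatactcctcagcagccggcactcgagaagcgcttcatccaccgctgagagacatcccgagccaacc
Fam26f promoter, chr10:34127923-34128222: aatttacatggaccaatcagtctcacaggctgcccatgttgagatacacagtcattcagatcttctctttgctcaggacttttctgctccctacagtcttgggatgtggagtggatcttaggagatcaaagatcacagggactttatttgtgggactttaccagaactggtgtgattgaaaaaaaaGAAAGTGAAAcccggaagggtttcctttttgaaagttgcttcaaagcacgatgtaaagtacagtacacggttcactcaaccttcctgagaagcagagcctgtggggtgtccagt
Rsad2 promoter, chr12:26456403-26456702: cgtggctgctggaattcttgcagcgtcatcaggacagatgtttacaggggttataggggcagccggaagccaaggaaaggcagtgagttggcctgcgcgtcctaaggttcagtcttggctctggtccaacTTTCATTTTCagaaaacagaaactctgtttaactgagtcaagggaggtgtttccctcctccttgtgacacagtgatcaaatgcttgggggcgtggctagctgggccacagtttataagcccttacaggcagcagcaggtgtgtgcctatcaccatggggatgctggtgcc
Ankrd37 promoter, chr8:45999801-46000100: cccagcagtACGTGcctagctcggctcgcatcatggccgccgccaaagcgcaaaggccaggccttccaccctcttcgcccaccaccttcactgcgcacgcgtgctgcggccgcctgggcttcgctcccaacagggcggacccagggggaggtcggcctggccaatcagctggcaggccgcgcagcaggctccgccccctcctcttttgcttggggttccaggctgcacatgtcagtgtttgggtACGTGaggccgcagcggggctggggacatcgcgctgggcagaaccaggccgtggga
Bnip3 promoter, chr7:138909457-138909756: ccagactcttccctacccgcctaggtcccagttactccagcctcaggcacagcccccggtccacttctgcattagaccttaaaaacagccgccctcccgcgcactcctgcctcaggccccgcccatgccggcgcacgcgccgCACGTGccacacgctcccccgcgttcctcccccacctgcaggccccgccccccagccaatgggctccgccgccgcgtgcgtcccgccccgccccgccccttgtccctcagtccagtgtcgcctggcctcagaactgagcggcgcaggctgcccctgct
The ACGTG core was found in 22 of the 30 glycolysis and hypoxia genes with a window (73.3%), beside 2385 of 7775 compared genes with one (30.7%) and 19.6% of all 32851 windows. It was found in 589 of 1872 genes that were at least 2-fold higher (31.5%), close to the share of all compared genes. The interferon-stimulated response element was found in 3.44% of all windows and in 321 of the 7775 genes (4.13%). Of the 20 genes with the lowest ratios 15 had a window, and 3 of them, Cxcl10, Rsad2 and Fam26f, held it. A share over all lower genes is void, because 305 of the 421 (72.4%) had a window, under the 80% needed. The AP-1 site TGANTCA was found in 6.89% of the higher genes and 6.51% of compared genes, the C/EBP site TTGCNNAA in 10.6% and 10.3%, and the kappa B site in 0.588% and 0.54%. A match describes these letters only.

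Other genes with the highest ratios had varied roles. Spic, a transcription factor of iron-recycling red pulp macrophages, had 65.3 FPKM in KO tolerized and 4.43 FPKM in KO LPS cells (3.61). Fcgr4, an activating receptor for immunoglobulin G, had 130.9 FPKM in KO tolerized, 12.2 FPKM in KO LPS and 4.35 FPKM in KO naive cells (3.32). Plbd1, Adam8, Gys1, Gpr35, Gpr31c, Gp6, Serpinb8 and Dhrs3, the rest of the 20 highest beside those described, had ratios from 3.21 to 3.51, with Stfa3 at 3.74. Of the 20 genes, 17 were higher in KO tolerized than in KO naive cells and 16 were lower in KO LPS than in KO naive cells. Among the 20 lowest, 14 were still higher in KO tolerized than in KO naive cells and 6 were lower. One of the 6 was Emr4, an adhesion receptor of macrophages, with 1.89 FPKM in KO tolerized, 41.1 FPKM in KO LPS and 72.2 FPKM in KO naive cells (-3.87). These comparisons with KO naive cells share libraries with the ratio and are given as values only.

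Lipid, chromatin and division genes held more higher than lower calls, as did all genes with 24% and 4.35%. Nr1h3, the oxysterol receptor LXR alpha, had 27.3 FPKM in KO tolerized, 3.94 FPKM in KO LPS and 20.5 FPKM in KO naive cells (2.52). Its target Abca1, which exports cholesterol, had 39.8 FPKM in KO tolerized, 8.29 FPKM in KO LPS and 47.6 FPKM in KO naive cells (2.14). Of 20 cholesterol efflux and LXR genes 6 were higher and 2 lower, with a median of 0.30 (-0.32 after rescaling, with 3 higher and 5 lower). Of 31 histone and DNA modifying enzymes 10 were higher, such as the deacetylase Hdac7 (2.65), the demethylase Kdm5b (2.28) and the DNA methyltransferase Dnmt1 (1.95). The methyltransferase Setdb2 was lower, with 5.01 FPKM in KO tolerized and 33.2 FPKM in KO LPS cells (-2.51). The median of these enzymes, 0.61, lay 0.06 above that of all genes, and 5 were higher and 4 lower after rescaling. Of 23 cell cycle genes 10 were higher and 2 lower, with a median of 0.95, and 5 were higher and 5 lower after rescaling. Among cell cycle genes with at least 10 FPKM in either library the median was -0.17. Top2a, a topoisomerase of dividing cells, had 7.13 FPKM in KO tolerized and 1.18 FPKM in KO LPS cells (1.90), while the cell cycle inhibitor Cdkn1a had 152.4 and 522.9 FPKM in the same order (-1.77). Of 24 unfolded protein and amino acid stress genes 9 were higher and none lower, led by Ddit3 (1.68). Their median of 0.69 lay 0.13 above that of all genes. After rescaling it was 0.08, with 3 of these stress genes higher and 1 lower.

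MHC class II genes were higher beside B cell transcripts. Of 11 MHC class II genes 6 were higher and none lower, beside 24% and 4.35% of all genes. The class II median was 1.04, and after rescaling 3 were higher with a median of 0.43. The 4 with the largest ratios were H2-DMb2 (1.84), H2-Eb2 (1.65), H2-Ob (1.63) and the class II transactivator Ciita (1.54), of which H2-Ob encodes a chaperone subunit best known from B cells. Of 14 measured B cell markers 10 were higher and none lower, with a median of 1.25. After rescaling 5 B cell markers were higher, with a median of 0.65. Fcrla had 53.1 FPKM in KO tolerized and 12.05 FPKM in KO LPS cells (2.05), and the B cell receptor subunit Cd79b had 95.9 and 27.1 FPKM in the same order (1.78), against 154.5 FPKM in KO naive cells. All 5 measured T and NK cell markers and 4 of 7 mast cell and eosinophil markers were higher. The other 9 of the 14 listed T and NK cell markers lay under 2 FPKM in both libraries. Thy1 and Cd3g reached 2 FPKM in KO tolerized cells only, with 5.40 and 3.06 FPKM, against 0.719 and 0.733 FPKM in KO LPS cells. A marker that enters through KO tolerized cells alone cannot be lower, so the count of 5 is partly set by the level rule. After rescaling 1 T and NK cell marker and 1 mast cell and eosinophil marker were higher. The part of B cells in the class II values was not tested. Among 20 MHC class I genes 5 were higher and 1 lower, near the all-gene share, and their median of 0.26 lay 0.29 below that of all genes and was -0.36 after rescaling. The class Ib genes H2-Q7 and H2-Q6, near copies whose counts can be shared, had ratios of 2.31 and 2.08.

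Markers of the macrophages themselves went both ways as deposited, and more were lower than higher after rescaling, as among all genes. Of 14 macrophage markers 4 were higher and 2 lower, beside 24% and 4.35% of all genes. After rescaling 1 macrophage marker was higher and 5 were lower, beside 7.81% and 10.5% of all genes. Fcgr1, the high-affinity receptor for immunoglobulin G, had 127.0 FPKM in KO tolerized and 19.6 FPKM in KO LPS cells (2.63). Mertk, a receptor for dying cells, had 22.8 FPKM in KO tolerized, 114.2 FPKM in KO LPS and 34.2 FPKM in KO naive cells (-2.27). Of 17 markers of large peritoneal macrophages 6 were lower, among them Timd4, another receptor for dying cells, with 29.1 FPKM in KO tolerized and 140.3 FPKM in KO LPS cells (-2.23), and 5 were higher, such as Thbs1 with 1137 and 237.4 FPKM in the same order (2.25). After rescaling 8 large peritoneal macrophage markers were lower and 2 higher. Of 17 scavenger and efferocytosis receptors 6 were lower and 1, Stab1, was higher, with a median of -0.51. Of 28 lysosomal genes 24 lay within 2-fold. Of 23 matrix, protease and coagulation genes 3 were higher, including the collagenase Mmp13 with 584.3 FPKM in KO tolerized and 126.7 FPKM in KO LPS cells (2.20), and 5 were lower.

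Other lists are given beside the same all-gene shares of 24% higher and 4.35% lower. Ltc4s, which makes leukotriene C4, had 0.854 FPKM in KO tolerized, 9.64 FPKM in KO LPS and 63.0 FPKM in KO naive cells (-2.52), and Ptger2, a prostaglandin E receptor, had 7.14 FPKM in KO tolerized and 0.718 FPKM in KO LPS cells (2.24). Of their 15 eicosanoid genes 2 were higher and 2 lower. Of 17 costimulatory and checkpoint molecules 3 were higher and 2 lower, with Tnfsf9, the ligand of 4-1BB, at 20.1 FPKM in KO tolerized and 111.1 FPKM in KO LPS cells (-2.41). Of 24 oxidative stress and metal response genes 1, Gclc of glutathione synthesis, was higher (1.07) and 1, the metallothionein Mt2, lower (-1.06). Cebpa, a myeloid transcription factor, had 17.6 FPKM in KO tolerized, 5.88 FPKM in KO LPS and 101.6 FPKM in KO naive cells (1.44). Of 8 measured markers of small peritoneal macrophages and monocytes 3 were higher, led by Ly6c2 (1.53), and 1, Itgax, was lower (-1.59). The stromal gene Dcn, which encodes decorin, had 28.1 FPKM in KO tolerized and 4.50 FPKM in KO LPS cells (2.40). The haemoglobin copies Hbb-b2 and Hbb-b1 had ratios of 2.03 and -1.78, and their counts can be shared.

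Genes named in earlier work as miR-221/222 targets were measured in cells that lack both microRNAs. Of 22 measured, 8 were higher and 1 lower, beside 24% and 4.35% of all genes. Their median was 0.23, which is 0.32 below that of all genes and turned to -0.44 after rescaling. The transcription factors Ets1 and Foxo3 had ratios of 1.65 and 1.52. The death ligand Tnfsf10 had 2.97 FPKM in KO tolerized and 19.4 FPKM in KO LPS cells (-2.36). In WT cells the median of the 22 genes was 0.25 as deposited. There 3 were higher and 3 lower, beside 20.6% and 4.26% of genes in WT. The difference between the genotypes was not tested. Smarca4 had a ratio of 0.15 (0.05 to 0.26) in KO cells, which turned to -0.45 after rescaling. As deposited its ratio was 0.73 in WT cells, with 20.1 FPKM in WT tolerized, 11.7 FPKM in WT LPS and 17.1 FPKM in WT naive cells. A rescaled WT ratio is not given here, so 0.73 compares only with the KO ratio of 0.15. Of 21 SWI/SNF subunits 3 were higher, Smarcd2, Smarcc2 and Smarca2 at 1.23 to 1.24, and none lower. Their median of 0.48 lay 0.07 below that of all genes and turned to -0.13 after rescaling. In WT cells the median of the 21 subunits was 0.53 as deposited.

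The WT libraries, which do not enter the KO ratio, gave a way to group the genes by their first LPS response. Of 9651 genes marked OK in WT, 838 (8.68%) were raised at least 2-fold by LPS (WT LPS against WT naive), and 3420 (35.4%) were lowered at least 2-fold. Among the 838, 253 (30.2%) were at least 2-fold lower in KO tolerized than in KO LPS cells and 62 (7.40%) higher, with a median of -0.41. Among the 3420, 41 (1.20%) were lower and 1564 (45.7%) higher, with a median of 0.94. Among the 5393 within 2-fold in WT, 127 (2.35%) were lower and 691 (12.8%) higher. The sizes of these WT groups depend on scale too. After rescaling 1725 genes were raised and 1574 lowered at least 2-fold by LPS in WT cells. Of those raised genes 34.3% were lower in KO tolerized cells, and of those lowered genes 27.0% were higher.

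**Figure D4:**
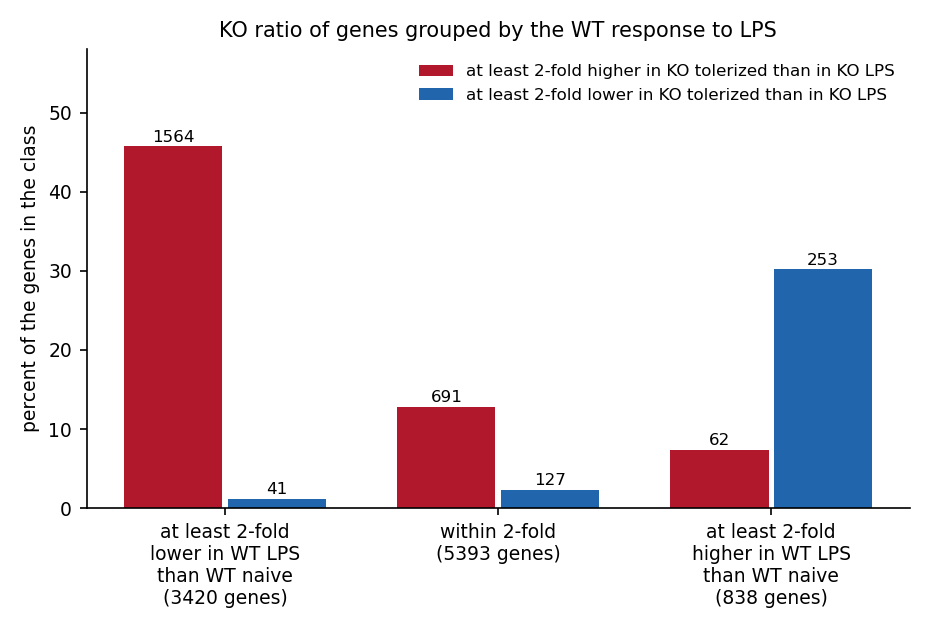
Share of genes at least 2-fold higher (red) or lower (blue) in KO tolerized than in KO LPS cells, for genes grouped by the response to LPS of the WT libraries, with the number of genes above each bar. Bars are shares of genes from single libraries on the deposited scale and have no error bars. Higher calls are 45.7% of genes lowered by LPS in WT, and lower calls are 30.2% of genes raised by it.

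The same contrast in WT cells gave overlapping calls. Of the KO higher genes measured in WT 1278 were also at least 2-fold higher in WT tolerized than in WT LPS cells, which is 55.2% of the 2317 KO calls and 64.3% of the 1989 WT calls (20.6% of genes). Of the lower genes 249 were shared, 59.1% of the 421 KO calls and 60.6% of the 411 WT calls (4.26% of genes). All 20 genes with the highest KO ratios were at least 2-fold higher in WT too, and 18 of the 20 lowest were at least 2-fold lower. The exceptions were Emr4, with 9.09 FPKM in WT tolerized and 6.29 FPKM in WT LPS cells (0.47), and Mmp2, with 2.71 and 5.76 FPKM in the same order (-0.87). The difference between KO and WT ratios was not tested, since 6 single libraries leave no degrees of freedom for it.

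Some ratios lay far apart between the genotypes. Fabp7, a fatty acid carrier, had 138.3 FPKM in KO tolerized and 43.5 FPKM in KO LPS cells (1.65), and 112.8 FPKM in WT tolerized and 892.4 FPKM in WT LPS cells (-2.97). Ccl12 had a ratio of 1.77 in KO cells, and 2.90 FPKM in WT tolerized and 12.4 FPKM in WT LPS cells (-1.78). In the other direction, Mertk was at -2.27 in KO cells and at 0.59 in WT cells, where it had 13.1 FPKM in WT tolerized and 8.37 FPKM in WT LPS cells. Inhba, the activin A subunit, had 129.9 FPKM in KO tolerized and 126.0 FPKM in KO LPS cells (0.04), and 194.4 FPKM in WT tolerized and 11.8 FPKM in WT LPS cells (3.93). Mmp9, a gelatinase, had 58.4 FPKM in KO tolerized and 41.8 FPKM in KO LPS cells (0.47), and 116.2 and 4.99 FPKM in WT tolerized and WT LPS cells (4.29). After rescaling the KO ratios of Inhba and Mmp9 were -0.58 and -0.15. Their WT ratios are given as deposited only, so they compare with the KO ratios before rescaling. The naive levels of these genes differed too. Inhba had 10.8 FPKM in KO naive and 0.216 FPKM in WT naive cells, Mmp9 had 65.0 and 6.03 FPKM in the same order, and Ccl12 had 0.532 and 0.147 FPKM. Fabp7 and Mertk were lower in KO naive cells, with 73.0 and 34.2 FPKM, against 181.8 and 53.5 FPKM in WT naive cells. These naive values are 1 library per genotype, and their part in the ratios was not tested.

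**Figure D5:**
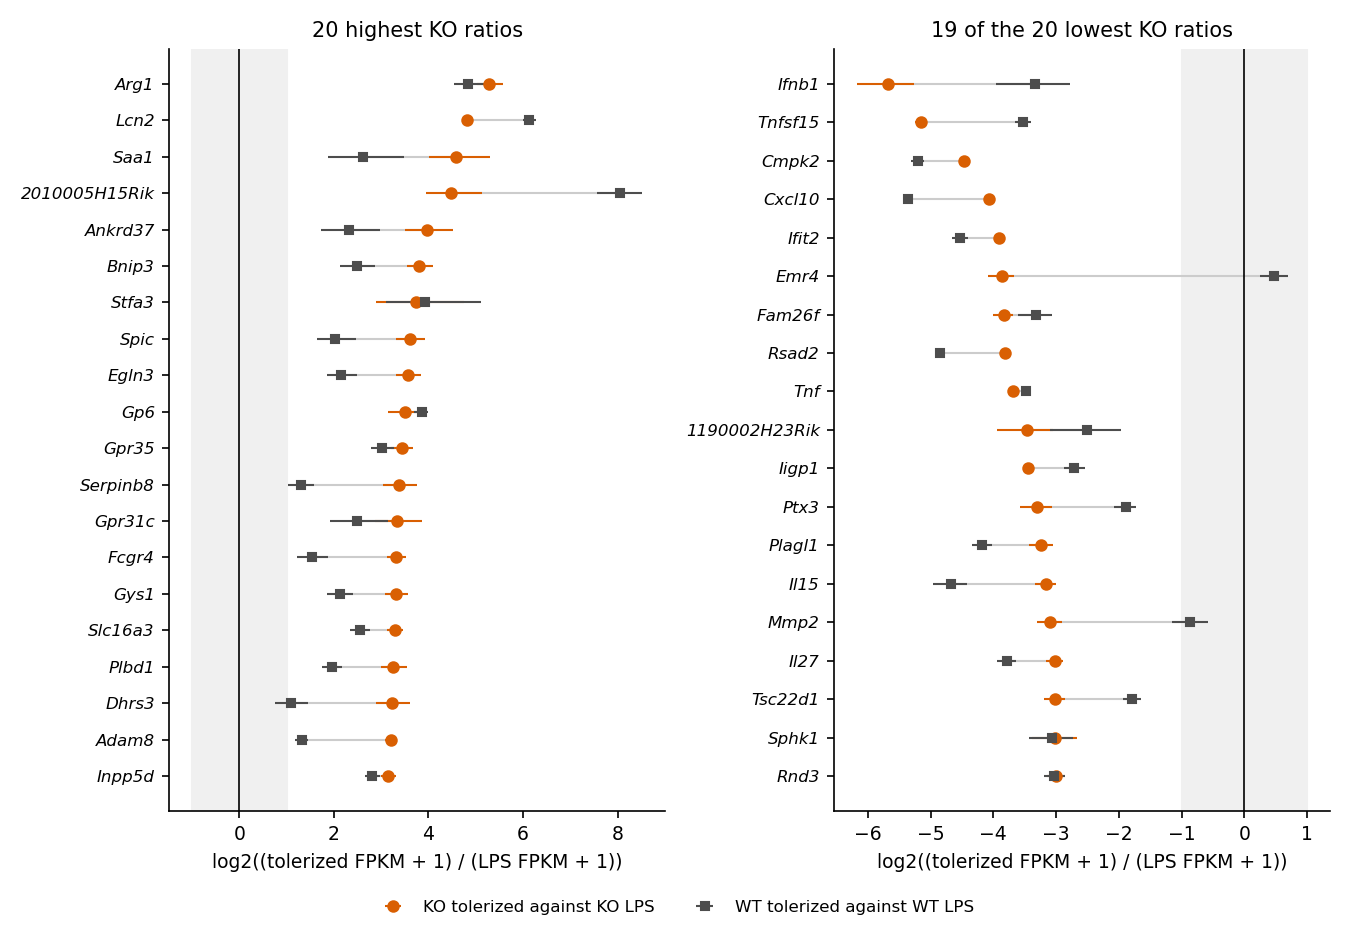
Log2 ratio of tolerized to LPS cells (FPKM + 1) for the 20 genes with the highest KO ratio and 19 of the 20 with the lowest, in KO (orange circles) and WT (grey squares), 1 library per group. Horizontal bars combine the deposited intervals and cover counting error only. Arg1 is at 5.29 in KO and 4.84 in WT, and Emr4 at -3.87 in KO and 0.47 in WT.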

How the data were processed

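Per the labels' protocols, poly-A RNA of cultured peritoneal macrophages (RIN above 8) was made into TruSeq libraries, 1 per group, and sequenced on a HiSeq2000. Per the file headers, the authors deposited 1 table per library that lists FPKM of every gene with a lower and an upper limit. Per the submitters' processing notes, the tools were bcl2fastq 1.8.4, TopHat and Cufflinks, with mouse build mm9; the sources used here do not give other versions, the annotation or strand settings.

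From these FPKM, log2((FPKM + 1)/(FPKM + 1)) was computed for rows marked OK in both KO libraries, with a symbol listed once and at least 2 FPKM in either, with Python 3.11.15 and pandas 2.3.3. FPKM are relative to all mapped fragments, so abundant transcripts such as Saa3 lower the value of the rest. With 1 library per group a rule of size, at least 2-fold, was used in place of a test. Coordinates are mm9, with 1 added to the start of the files. Fragment numbers were estimated from interval widths taken as 2 standard errors of a count on either side; read counts were not used here. The calling rule was tested on simulated data. For rescaling, a size factor per library was taken as its median of ratios over genes.

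The members and the 41 gene lists were chosen with earlier results of these data known. Named genes are the 20 highest and 20 lowest ratios among genes with at least 10 FPKM and intervals apart, the 4 members of a list with the largest ratios, the 10 of each sign farthest from the WT ratio, and a fixed set (Smarca4, Tnf, Il6, Il12b, Nos2, Ifnb1, Stat2, Irf7, Irf9, Il10, Arg1, Lcn2); marker checks, Saa3 and exceptions beside a small count (such as Adm, Bst2, Il1f9 and Stab1) were picked with values in view. Some genes that the rule names are not reported here. Promoter windows were matched by symbol to RefSeq, by an older symbol only where it names no current gene, and on the same chromosome; 7775 of 9685 genes (80.3%) had one, 1580 of them more than 1, and a match in any window counted.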

Additional observations from a re-analysis of the deposited data

Results flagged for a closer look

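The genes named here were at least 2-fold higher or lower in tolerized than in LPS cells in opposite directions in the genotypes. Each genotype has 1 library per condition, and the difference was not tested. Most of them were higher in KO tolerized than in KO LPS cells and lower in WT tolerized than in WT LPS cells. Fabp7 had log2 ratios of 1.65 in KO and -2.97 in WT, Ccl12 1.77 and -1.78, Padi4, which converts arginine to citrulline in proteins, 1.43 and -1.08, and Trib3, a stress-induced pseudokinase, 1.32 and -1.13. Vegfa, the angiogenic factor, had 1.23 in KO and -1.22 in WT, Pltp, a phospholipid carrier, 1.22 and -1.26, and Tnfrsf11a, the receptor RANK, 1.16 and -1.15. The other 2, 1100001G20Rik and Gmds, had -1.23 and -1.20 in KO against 2.64 and 1.07 in WT. Ccl12 had 72.6 FPKM in KO tolerized and 20.6 FPKM in KO LPS cells, Vegfa had 11.03 and 4.14 FPKM, and Gmds had 1.05 and 3.69 FPKM in the same order. After rescaling Padi4, Trib3, Vegfa, Pltp and Tnfrsf11a had KO ratios of 0.94, 0.89, 0.69, 0.61 and 0.66, below 2-fold. The WT ratios are given as deposited only.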

How the results depend on the processing

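Rescaling by the median of ratios moved the number of genes at least 2-fold higher in KO tolerized than in KO LPS cells to 757, against 2325 as deposited, and of those lower to 1021, against 421. With at least 10 FPKM in either library 1173 were higher. At 4-fold 180 were higher and 102 lower. The other 13 counts, under a pseudocount of 0.1, rescaling without the 50 most abundant rows, no filter, intervals apart, no small RNA rows and summed loci among them, stayed within 1.5 times. The share of WT LPS-induced genes that were lower was 34.3% rescaled and 47.1% for 4-fold induction. That of WT LPS-lowered genes that were higher was 27.0% and 61.7%. The WT groups themselves changed with these settings, to 1725 induced and 1574 lowered genes rescaled, and to 357 and 914 at 4-fold. AP-1 sites (TGANTCA) were in 9.15% of promoters of higher genes after rescaling, against 6.89% as deposited, where 79.4% of those genes had a window, just under the coverage needed. Rescaling shifts nearly all ratios down, those of low genes by less, and 17 of the 41 list medians changed sign with it. No paired analysis was possible because each group has 1 library, and no library could be left out of a group for the same reason. Values of 2 to 5 FPKM carry median counting intervals of 13.7% to 16.1% on either side, and lower values wider ones, such as 0.963 to 2.34 FPKM around 1.65 FPKM for Ifnb1 in KO tolerized cells.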
